A study of Saccharomyces cerevisiae with 12 samples.

Results

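The nuclear genes of the citric acid cycle and the respiratory chain, 42 by name, were followed across 4 strains of the budding yeast Saccharomyces cerevisiae. They were chosen by standard name, all matched 1 systematic identifier each among the 6219 genes of the count table, and all passed the filter on low counts. They comprise HAP4, 10 enzymes of the citric acid cycle, 2 NADH dehydrogenases, 4 subunits of complex II, 9 of complex III, 7 of complex IV and 9 of the ATP synthase. The strains share the W303 background with the alleles ade2-1, can1-100, his3-11,15, trp1-1, ura3-1 and a leu2 double allele (leu2-3 with leu2-112). They are wild type (WT) MATa (DY150), WT MATalpha (DY3420), tup1(S649F) MATa (DY19304) and tup1(S649F) MATalpha (DY19306), with 3 libraries each, so each group is 1 strain. The tup1 allele is a point mutation in Tup1, the corepressor that works with Cyc8, and the title of the series raises a coactivator role for Tup1. Cells in log phase came from rich medium with adenine and 2% dextrose at 30 °C and were collected when the optical density (660 nm) reached 0.6 to 0.8. RNA was counted after ribosomal RNA depletion in stranded paired-end libraries of 5657714 to 9300353 counts, in which a member had from 147 to 20823 counts. The labels leave unstated if replicates come from separate cultures, so p-values measure the spread between these libraries. Between the WT strains all 5 MATa markers (STE2, STE6, BAR1, MFA1 and MFA2) were lower and all 4 MATalpha markers (STE3, MF(ALPHA)1, MF(ALPHA)2 and SAG1) higher in MATalpha, which fits the labels. TUP1 RNA stood at 381 to 580.0 CPM (counts scaled to a common library total) over the 12 libraries, and a point mutation cannot be checked from its level. It was higher in tup1 than in WT in MATa (0.44 ± 0.08 SE on the log2 scale, edgeR adjusted p = 0.000119), while MATalpha missed the threshold (0.10 ± 0.08, adjusted p = 0.266), a difference between the mating types of −0.34 ± 0.11 (adjusted p = 0.0283). The library tup1 MATa replicate 1 stood apart from the other replicates of its strain (scaling factor 0.881, against 1.01 and 1.04 for replicates 2 and 3). It was the highest of its 3 for 26 members, and the counts of members called are given with and without it.

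The citric acid cycle oxidises acetyl groups in the mitochondrial matrix and passes electrons, as NADH and through succinate dehydrogenase, to the respiratory chain. Budding yeast has no proton-pumping complex I and uses single-subunit NADH dehydrogenases, after which electrons pass through complex III, cytochrome c and complex IV, and the proton gradient drives the ATP synthase. On glucose yeast ferments and keeps many of these genes low. The DNA-binding proteins Hap2, Hap3 and Hap5 act with the activator Hap4 at CCAAT sequences to raise them when glucose runs out, and the glucose repressor Mig1 recruits Tup1-Cyc8. Complexes III and IV and the ATP synthase also contain subunits encoded in mitochondrial DNA.

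Most members stood higher in tup1 than in WT, more of them and by more in MATalpha. Of the 42 members 26 rose and 0 fell in MATa, against 24.7% of the 5654 genes tested that rose and 16.7% that fell. In MATalpha 40 rose and 0 fell, against 32.0% and 31.0% of genes. The median log2 fold change of the members was 0.23 in MATa and 0.60 in MATalpha, beside −0.01 and −0.03 over all genes tested. These are mostly changes of under 2-fold: 2 members in MATa and 9 in MATalpha rose at least 2-fold, against 8.08% and 12.9% of genes. All 3 tup1 libraries lay above all 3 WT libraries of the same mating type for 29 members in MATa and 40 in MATalpha, as they did for 27.2% and 34.0% of genes. The MATa markers moved with tup1 in MATalpha: all 5 rose there, from a summed 24.8 to 25.8 CPM in WT MATalpha to 1638 to 2409 in tup1 MATalpha, beside 1775 to 1833 in WT MATa, with no marker at 0. The 4 MATalpha markers stood at 2660.1 to 2927 CPM in WT MATalpha, at 7113 to 10634 in tup1 MATalpha and at 48.05 to 52.5 in tup1 MATa. Their part in the members' changes was not tested. A change in the number of cells of a state and one in RNA per cell cannot be told apart in such bulk libraries. QCR6 and COX12 were called in neither mating type. By median the citric acid cycle, the NADH dehydrogenases and complex II moved most and complexes III and IV and the ATP synthase less. Upper-quartile scaling moved the median of all genes to −0.12 in MATa and −0.18 in MATalpha. With it 17 members rose and COX6 fell in MATa, where 1114 of all genes rose and 1778 fell. In MATalpha 38 members then rose and QCR6 fell, beside 1480 and 2470 genes. Without tup1 MATa replicate 1, 22 rose and COX6 fell in MATa, when 25.9% of genes rose and 18.2% fell. The counts in MATalpha were then again 40 and 0, against 33.7% and 33.0% of genes.

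**Figure D1:**
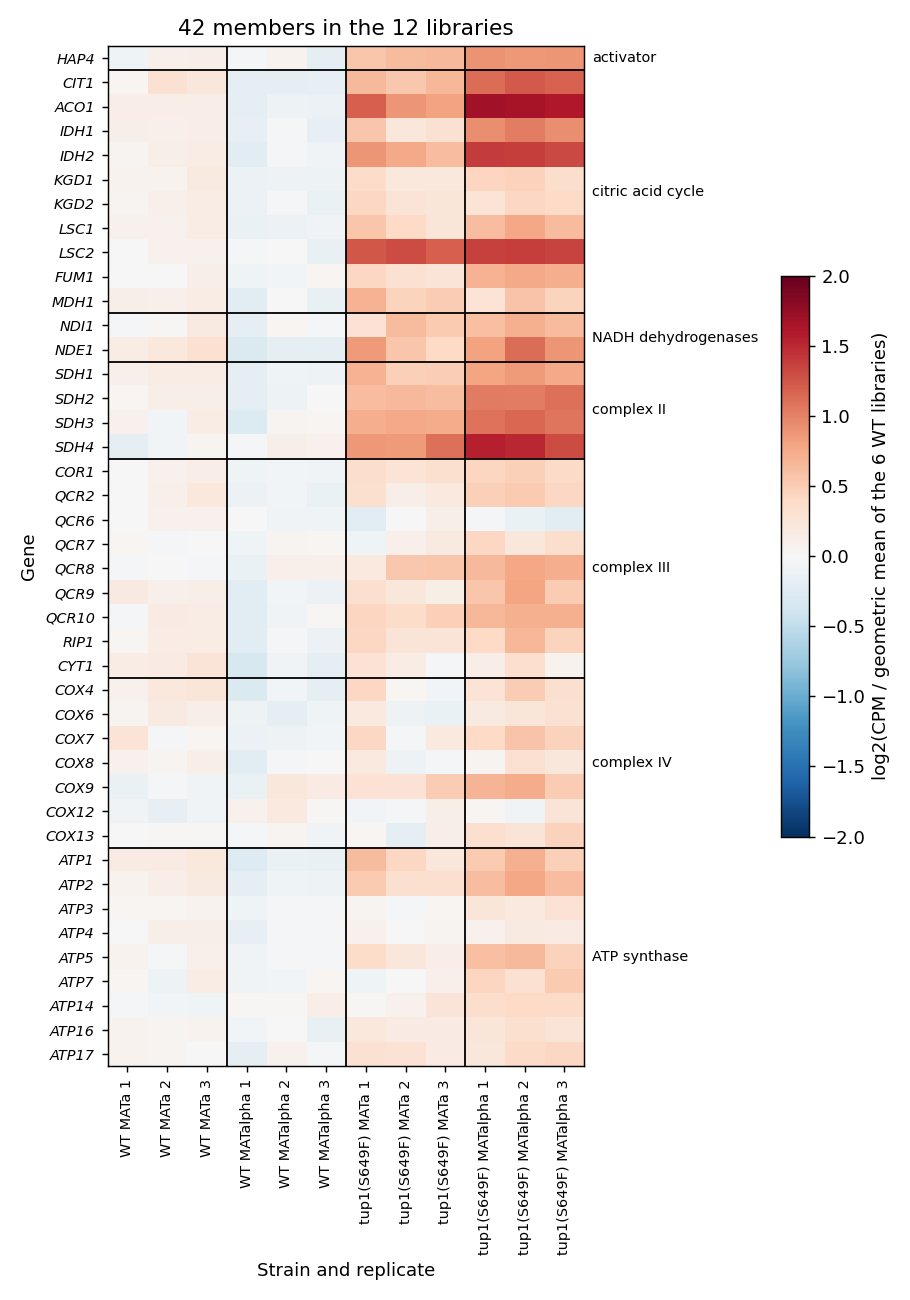
Level of each of the 42 members (rows, grouped by role) in each of the 12 libraries (columns, by strain and replicate), as the log2 ratio of its CPM to the geometric mean of the 6 WT libraries, where red is higher and blue lower. ACO1, LSC2, IDH2, CIT1 and SDH4 show the deepest red in tup1 MATalpha, and QCR6 and COX12 stay pale throughout.

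The sequences before the start codons are shown because the members moved together and because Hap4 acts at a known sequence. In the 500 bases before the start codon of R64, the S288C reference (the W303 strains may differ), the letters ACCAATNA on either strand were found for 17 of 42 members, 40.5%, against 8.62% of 5766 genes. The shorter CCAAT, which lies within it, was found for 38 members and 62.9% of genes. The Mig1 letters were taken as GCGGGG in one form, GTGGGG in another, CCGGGG in the next and CTGGGG in the last. On either strand they were found for 17 members, 40.5%, against 22.9% of genes. By group the Mig1 letters were present for HAP4, 6 of 10 citric acid cycle genes, 1 of 2 NADH dehydrogenases and 3 of 4 complex II genes. Further along the chain they were present for 4 of 9 complex III genes, 2 of 7 complex IV genes and 0 of 9 ATP synthase genes. ACCAATNA was distributed otherwise, with HAP4, 1 of 10 cycle genes, 2 of 2 NADH dehydrogenases and 1 of 4 in complex II. It was found for 3 of 9 in complex III, 4 of 7 in complex IV and 5 of 9 in the ATP synthase. Members with ACCAATNA had a median log2 fold change of 0.19 in MATa and 0.39 in MATalpha, and the 25 without it 0.26 and 0.75. A part of either sequence in the changes was not tested. The 300 bases before the start codon follow for HAP4, for a selection of members with large changes in MATalpha (ACO1, CIT1, LSC2 and SDH4, without IDH2) and for the pair called in neither mating type. They are printed 5′ to 3′ on the coding strand, with matches to ACCAATNA and the Mig1 letters in capitals.
HAP4, YKL109W, chrXI:231927-232226, plus strand: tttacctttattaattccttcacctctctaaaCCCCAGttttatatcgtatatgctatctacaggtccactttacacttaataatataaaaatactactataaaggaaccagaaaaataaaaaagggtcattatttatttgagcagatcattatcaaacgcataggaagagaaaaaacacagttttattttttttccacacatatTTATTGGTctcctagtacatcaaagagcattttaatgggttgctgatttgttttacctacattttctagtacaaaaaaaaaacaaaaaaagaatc
ACO1, YLR304C, chrXII:737549-737848, minus strand: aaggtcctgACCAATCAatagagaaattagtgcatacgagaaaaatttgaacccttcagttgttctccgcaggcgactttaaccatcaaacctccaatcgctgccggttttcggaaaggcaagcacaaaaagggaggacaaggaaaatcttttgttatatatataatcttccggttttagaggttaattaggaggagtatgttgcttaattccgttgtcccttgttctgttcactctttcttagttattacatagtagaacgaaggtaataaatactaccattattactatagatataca
CIT1, YNR001C, chrXIV:631062-631361, minus strand: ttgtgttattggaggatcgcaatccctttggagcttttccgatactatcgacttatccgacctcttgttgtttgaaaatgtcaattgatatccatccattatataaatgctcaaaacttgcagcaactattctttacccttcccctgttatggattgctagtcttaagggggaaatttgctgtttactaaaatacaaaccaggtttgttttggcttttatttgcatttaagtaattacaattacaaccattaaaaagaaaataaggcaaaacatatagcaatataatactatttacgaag
SDH4, YDR178W, chrIV:817650-817949, plus strand: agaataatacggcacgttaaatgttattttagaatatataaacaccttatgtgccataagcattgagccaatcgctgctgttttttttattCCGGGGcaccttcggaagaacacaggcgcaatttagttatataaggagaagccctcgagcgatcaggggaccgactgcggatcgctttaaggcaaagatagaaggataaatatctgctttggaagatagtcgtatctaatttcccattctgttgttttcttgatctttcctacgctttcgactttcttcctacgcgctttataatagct
LSC2, YGR244C, chrVII:979320-979619, minus strand: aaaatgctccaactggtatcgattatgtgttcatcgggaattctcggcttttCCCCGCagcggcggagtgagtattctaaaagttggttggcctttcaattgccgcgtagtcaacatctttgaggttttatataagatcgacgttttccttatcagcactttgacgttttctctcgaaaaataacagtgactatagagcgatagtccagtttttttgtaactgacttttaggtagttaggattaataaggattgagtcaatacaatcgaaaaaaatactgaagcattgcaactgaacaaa
QCR6, YFR033C, chrVI:224770-225069, minus strand: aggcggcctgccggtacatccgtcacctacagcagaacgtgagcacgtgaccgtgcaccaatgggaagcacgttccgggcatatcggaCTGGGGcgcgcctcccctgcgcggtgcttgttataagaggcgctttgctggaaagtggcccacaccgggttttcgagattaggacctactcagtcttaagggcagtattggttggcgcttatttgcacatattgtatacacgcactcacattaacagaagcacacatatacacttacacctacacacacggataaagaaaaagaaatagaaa
COX12, YLR038C, chrXII:225173-225472, minus strand: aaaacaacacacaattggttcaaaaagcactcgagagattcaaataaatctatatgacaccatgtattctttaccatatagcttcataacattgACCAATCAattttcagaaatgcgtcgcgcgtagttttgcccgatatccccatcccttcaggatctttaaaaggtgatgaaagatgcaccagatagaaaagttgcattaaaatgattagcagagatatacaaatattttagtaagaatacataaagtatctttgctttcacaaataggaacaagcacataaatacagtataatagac
The HAP4 window holds 1 match each to ACCAATNA and the Mig1 letters, ACO1 and COX12 1 match to ACCAATNA, LSC2 and SDH4 1 Mig1 match, and CIT1 none (its Mig1 letters lie farther upstream). The QCR6 window holds 1 Mig1 match. The windows of QCR6 and COX12 reach into the coding sequence of the upstream neighbour on the same strand, YFR034C and YLR039C.

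HAP4, the activator of this pathway, rose in tup1 of both mating types. It stood at 48.3, 54.8 and 55.2 CPM for WT MATa, 50.5, 53.4 and 45.2 for WT MATalpha, 74.9, 79.6 and 79.8 for tup1 MATa and 95.2, 93.7 and 94.4 for tup1 MATalpha. All tup1 libraries lay above all WT libraries, and tup1 MATalpha lay above tup1 MATa. The log2 fold change was 0.57 ± 0.07 SE in MATa (edgeR adjusted p = 3.39e-06) and 0.92 ± 0.07 in MATalpha (adjusted p = 2.05e-09). Group means were 52.7 ± 3.88 and 78.1 ± 2.795 CPM in MATa and 49.7 ± 4.14 and 94.4 ± 0.748 in MATalpha (SD, n = 3). The effect was larger in MATalpha by 0.36 ± 0.10 (adjusted p = 0.018), a call that leaving out WT MATa replicate 2, WT MATa replicate 3 or WT MATalpha replicate 3 ended (adjusted p 0.0143 to 0.0669 over single left-out libraries). Per kilobase of coding sequence HAP4 was the lowest of the 42 in every strain, at 31.7 CPM in WT MATa and 56.7 in tup1 MATalpha.

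In the citric acid cycle 9 of 10 genes rose in MATa and 10 in MATalpha, 5 of the latter at least 2-fold. Upper-quartile scaling left 7 called in MATa, without IDH1 and KGD2. CIT1, citrate synthase, which opens the cycle, stood at 154, 185 and 176 CPM for WT MATa, 131, 132 and 134 for WT MATalpha, 237, 219 and 239 for tup1 MATa and 326, 353 and 342 for tup1 MATalpha. In both mating types the tup1 libraries lay above all WT ones, and WT MATalpha lay lowest. CIT1 rose by 0.43 ± 0.07 SE on the log2 scale in MATa and by 1.37 ± 0.07 in MATalpha (adjusted p = 4.06e-05 and 2.09e-12). ACO1, aconitase, which turns citrate into isocitrate, was the most abundant cycle RNA per kilobase, with levels of 1061, 1067 and 1071 CPM across WT MATa, 851, 906 and 901 across WT MATalpha, 2227, 1799 and 1690.1 across tup1 MATa and 3126, 3044 and 2936 across tup1 MATalpha. Its change was the largest of all members in MATalpha, 1.78 ± 0.10 (adjusted p = 4.62e-12), beside 0.84 ± 0.09 in MATa (adjusted p = 4.37e-07), where replicate 1 was the highest tup1 library. IDH1 and IDH2 encode the paired subunits of NAD-dependent isocitrate dehydrogenase. IDH1 stood at 115, 115 and 117 CPM across WT MATa, 94.7, 104 and 95.4 across WT MATalpha, 156, 124 and 132 across tup1 MATa and 203, 217 and 203 across tup1 MATalpha, and IDH2 at 253, 265 and 269.6 CPM for WT MATa, 209.5, 236 and 233 for WT MATalpha, 451, 412 and 374 for tup1 MATa and 641, 637 and 605 for tup1 MATalpha. IDH1 rose by 0.25 ± 0.07 in MATa and 1.08 ± 0.07 in MATalpha, and IDH2 by 0.65 ± 0.07 and 1.47 ± 0.08, with IDH2 ahead of its partner in both mating types.

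In MATalpha the next enzymes of the cycle moved less than those before them, apart from LSC2. In MATa MDH1 (0.43), LSC1 (0.29) and FUM1 (0.29) also moved more than IDH1 (0.25). KGD1 and KGD2 encode the dehydrogenase and succinyltransferase components of the alpha-ketoglutarate dehydrogenase complex. KGD1 stood at 349.7, 351 and 377 CPM for WT MATa, 308, 311 and 312 for WT MATalpha, 433, 386 and 387 for tup1 MATa and 451, 461 and 427 for tup1 MATalpha, with a change in MATa that missed the threshold (0.16 ± 0.07, adjusted p = 0.0557) although its tup1 libraries all lay above WT. Leaving out WT MATa replicate 3, tup1 MATa replicate 3 or tup1 MATalpha replicate 2 or 3 made it a call. KGD2 stood at 107, 111 and 114 CPM across WT MATa, 95.7, 100.1 and 93.8 across WT MATalpha, 138, 124 and 122 across tup1 MATa and 125, 138 and 136 across tup1 MATalpha, with the smallest rise of the cycle in MATalpha (0.46 ± 0.07, adjusted p = 4.95e-06; KGD1 0.52 ± 0.07). In MATa it rose by 0.21 ± 0.06 (adjusted p = 0.0135, not called without WT MATa replicate 1). LSC1 and LSC2 encode the alpha and beta subunits of succinyl-CoA ligase. LSC1 stood at 325, 325 and 339.6 CPM for WT MATa, 280.2, 280.5 and 290.2 for WT MATalpha, 447, 402 and 362 for tup1 MATa and 472, 520.5 and 474 for tup1 MATalpha. LSC2, the lowest cycle RNA per kilobase in WT, stood at 81.6, 85.8 and 85.8 CPM across WT MATa, 78.5, 80.6 and 72.99 across WT MATalpha, 191, 199 and 185 across tup1 MATa and 208, 211 and 206 across tup1 MATalpha. LSC2 had the largest change of all members in MATa, 1.18 ± 0.06 (adjusted p = 2.44e-12), and 1.43 ± 0.06 in MATalpha, while LSC1 rose by 0.29 ± 0.07 and 0.79 ± 0.07. The ratio of LSC1 to LSC2 per kilobase went from 5.07 in WT MATa to 2.73 in tup1 MATa, and from 4.76 to 3.04 in MATalpha. FUM1, fumarase, stood at 287, 289 and 315 CPM for WT MATa, 274, 279 and 296 for WT MATalpha, 387, 359 and 346 for tup1 MATa and 468, 489 and 482 for tup1 MATalpha. MDH1, the mitochondrial malate dehydrogenase that closes the cycle, stood at 98.7, 97.2 and 100.4 CPM across WT MATa, 77.8, 89.9 and 81.9 across WT MATalpha, 146, 123 and 129 across tup1 MATa and 109.6, 134 and 124 across tup1 MATalpha. FUM1 rose by 0.29 ± 0.07 and 0.76 ± 0.07, and MDH1 by 0.43 ± 0.08 and 0.56 ± 0.08, and MDH1 alone of the cycle genes had its highest mean in tup1 MATa.

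**Figure D2:**
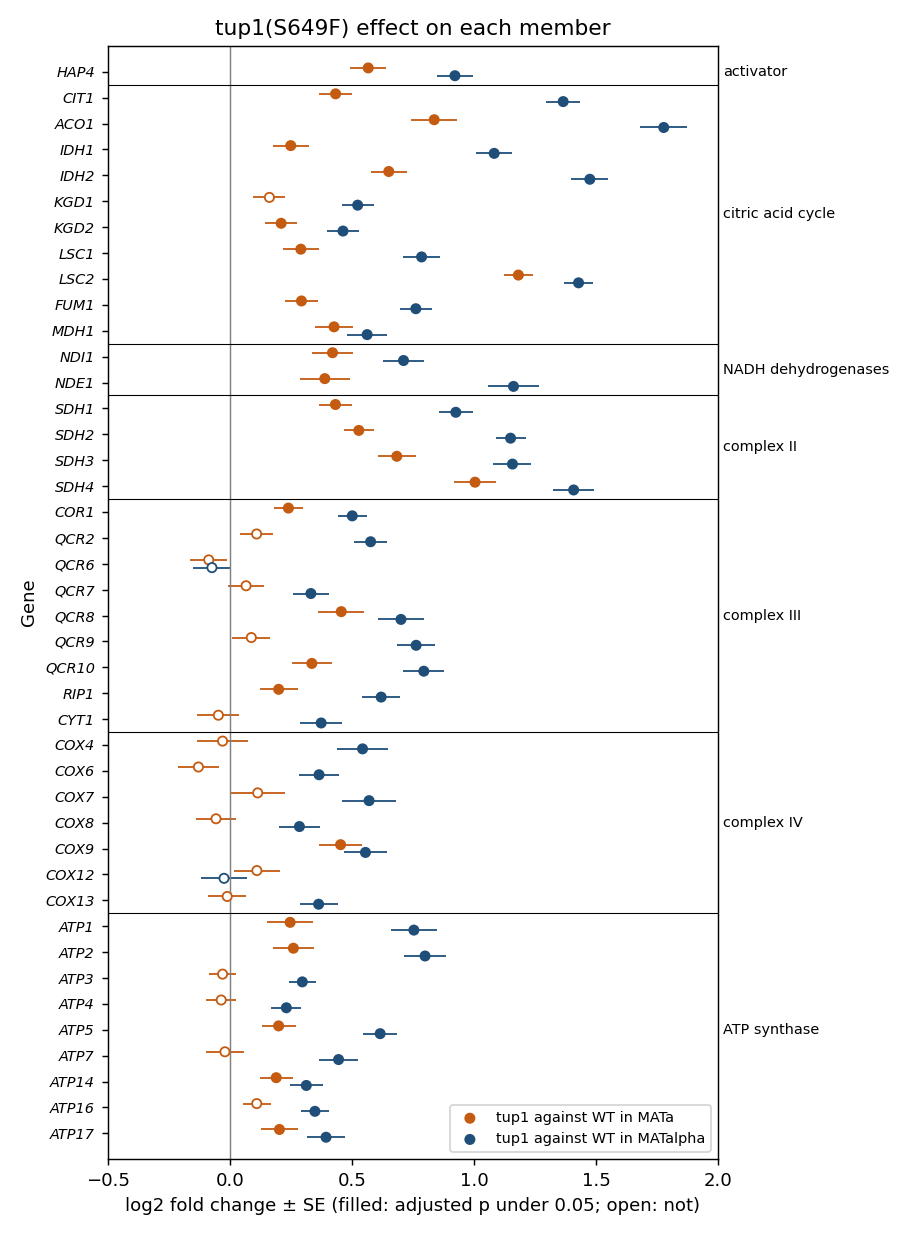
Log2 fold change of tup1 against WT for each member (rows, grouped by role), in MATa (orange) and MATalpha (blue). Bars are SE, and filled points have an adjusted p under 0.05. The blue points lie right of the orange ones for 41 of 42 members, COX12 being the exception, and the open blue points are QCR6 and COX12.

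Electrons enter the chain through the NADH dehydrogenases and complex II, and all 6 of these members rose in both mating types. NDI1, which oxidises NADH of the matrix, stood at 93.3, 96.7 and 107 CPM across WT MATa, 82.9, 97.7 and 92.7 across WT MATalpha, 115, 147 and 136 across tup1 MATa and 144, 155 and 146 across tup1 MATalpha. NDE1, which oxidises NADH on the outer face of the inner membrane, stood at 765, 798 and 847 CPM across WT MATa, 562, 605 and 600.3 across WT MATalpha, 1238, 1009.5 and 909 across tup1 MATa and 1199.7, 1486 and 1268 across tup1 MATalpha. NDI1 rose by 0.42 ± 0.08 SE in MATa and 0.71 ± 0.08 in MATalpha (adjusted p = 0.000475 and 5.83e-07). NDE1 rose by 0.39 ± 0.10 and 1.16 ± 0.10 (adjusted p = 0.00496 and 1.05e-08), from a lower level in WT MATalpha than in WT MATa. Complex II is succinate dehydrogenase, the enzyme shared by the cycle and the chain. SDH1, its flavoprotein, stood at 273, 282 and 282 CPM across WT MATa, 222, 240.4 and 239 across WT MATalpha, 414, 354 and 360.3 across tup1 MATa and 442, 459 and 429.9 across tup1 MATalpha. SDH2, the iron-sulfur subunit, stood at 80.8, 85.7 and 85.7 CPM for WT MATa, 69.4, 72.9 and 78.6 for WT MATalpha, 120.2, 123 and 121 for tup1 MATa and 161, 159.9 and 168 for tup1 MATalpha. For both, every tup1 library lay above every WT library. SDH3, a membrane anchor, stood at 107, 96.8 and 111 CPM across WT MATa, 83.4, 104.6 and 104 across WT MATalpha, 166, 171 and 169 across tup1 MATa and 213, 224 and 211 across tup1 MATalpha. SDH4, the other anchor, stood at 60.8, 65.9 and 71.0 CPM for WT MATa, 67.3, 74.6 and 72.8 for WT MATalpha, 125, 123 and 147 for tup1 MATa and 202, 196 and 170.3 for tup1 MATalpha, with the largest change of complex II in both mating types. SDH4 rose by 1.00 ± 0.08 and 1.41 ± 0.08 (adjusted p = 7.5e-09 and 2.12e-11). SDH3 rose by 0.68 ± 0.08 and 1.16 ± 0.08, SDH2 by 0.53 ± 0.06 and 1.15 ± 0.06, and SDH1, the smallest change, by 0.43 ± 0.07 and 0.93 ± 0.07 (adjusted p = 4.13e-05 and 7.38e-10). The 4 subunits stayed close to each other per kilobase, the highest over the lowest being 1.68 in WT MATa and 1.78 in tup1 MATalpha.

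Complex III, which passes electrons from ubiquinol to cytochrome c, rose in part: 4 of 9 members in MATa and 8 in MATalpha, with QCR6 called in neither. Upper-quartile scaling left 2 called in MATa, ending the calls of COR1 and RIP1. COR1, a core subunit, stood at 280.2, 296 and 306 CPM for WT MATa, 264, 269.8 and 265 for WT MATalpha, 356, 338 and 348 for tup1 MATa and 376, 389 and 365 for tup1 MATalpha. QCR2, the other core subunit, stood at 206, 221 and 239 CPM across WT MATa, 189, 198 and 188 across WT MATalpha, 258, 224 and 236 across tup1 MATa and 288, 296 and 274 across tup1 MATalpha. COR1 rose by 0.24 ± 0.06 SE and 0.50 ± 0.06, while QCR2 rose in MATalpha (0.58 ± 0.07) and did not pass in MATa (0.11 ± 0.07, adjusted p = 0.211). RIP1, the Rieske iron-sulfur protein, stood at 249, 271 and 272 CPM across WT MATa, 211, 240.0 and 225 across WT MATalpha, 326, 292 and 291 across tup1 MATa and 321, 386 and 331 across tup1 MATalpha. CYT1, cytochrome c1, stood at 296, 301 and 322 CPM for WT MATa, 215, 256 and 236 for WT MATalpha, 328, 297 and 265 for tup1 MATa and 295, 339 and 282 for tup1 MATalpha, where the MATa groups overlap and WT MATalpha is lowest. RIP1 rose by 0.62 ± 0.08 in MATalpha and by 0.20 ± 0.08 in MATa (adjusted p = 0.0455), the latter lost when any 1 of the 6 WT libraries, or tup1 MATa replicate 1 or 2, was left out. CYT1 rose by 0.37 ± 0.09 in MATalpha and was at −0.05 ± 0.09 in MATa (adjusted p = 0.703).

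The small subunits of complex III differed among themselves. QCR6, the acidic hinge subunit, stood at 144, 152 and 153 CPM across WT MATa, 142, 137 and 135 across WT MATalpha, 123, 145 and 156 across tup1 MATa and 140.4, 131 and 123 across tup1 MATalpha, so that its groups overlap in both mating types. It was at −0.09 ± 0.08 SE in MATa and −0.07 ± 0.08 in MATalpha (adjusted p = 0.393 and 0.425), the lowest of the complex in both, and was called lower in MATalpha with upper-quartile scaling (−0.22). QCR7 stood at 81.6, 78.6 and 79.04 CPM for WT MATa, 75.3, 82.6 and 81.7 for WT MATalpha, 75.0, 85.7 and 90.1 for tup1 MATa and 106, 93.7 and 102 for tup1 MATalpha, and QCR8 at 40.4, 40.6 and 40.2 CPM across WT MATa, 37.4, 44.01 and 43.8 across WT MATalpha, 46.8, 59.3 and 60.4 across tup1 MATa and 64.4, 69.9 and 67.8 across tup1 MATalpha. QCR8 had the largest change of the complex in MATa (0.46 ± 0.09, adjusted p = 0.000601; 0.70 ± 0.09 in MATalpha). QCR7 rose in MATalpha (0.33 ± 0.07) and did not pass in MATa (0.07 ± 0.07, adjusted p = 0.502). QCR9 stood at 103, 97.3 and 97.9 CPM for WT MATa, 77.5, 87.05 and 83.4 for WT MATalpha, 113, 106 and 98.4 for tup1 MATa and 133, 157 and 129 for tup1 MATalpha. QCR10 stood at 33.5, 38.6 and 38.0 CPM for WT MATa, 29.4, 32.8 and 35.01 for WT MATalpha, 46.3, 44.3 and 47.97 for tup1 MATa and 54.5, 56.4 and 56.6 for tup1 MATalpha and had the largest change of the complex in MATalpha, 0.79 ± 0.08 (adjusted p = 1.13e-07), with 0.34 ± 0.08 in MATa. QCR9 rose by 0.76 ± 0.08 in MATalpha and was at 0.09 ± 0.08 in MATa (adjusted p = 0.387).

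Complex IV, cytochrome c oxidase, had the lowest median in MATa, where only COX9 of its 7 listed nuclear subunits rose, while 6 rose in MATalpha. COX4, a zinc-binding subunit needed for assembly, stood at 133, 145 and 148 CPM across WT MATa, 102, 121 and 110.4 across WT MATalpha, 167, 129 and 121 across tup1 MATa and 151, 177 and 156 across tup1 MATalpha. COX6 stood at 57.5, 62.6 and 60.04 CPM across WT MATa, 51.3, 48.5 and 51.9 across WT MATalpha, 62.9, 51.3 and 50.3 across tup1 MATa and 62.2, 65.3 and 67.9 across tup1 MATalpha. In MATa both had tup1 replicate 1 above every WT library and replicates 2 and 3 below every WT library. COX6 had the lowest value of the group there, −0.13 ± 0.08 SE (adjusted p = 0.227). It was called lower without tup1 MATa replicate 1 (−0.23) and with upper-quartile scaling (−0.23), and rose in MATalpha (0.37 ± 0.08). COX4 was at −0.03 ± 0.10 in MATa (adjusted p = 0.85) and rose by 0.54 ± 0.10 in MATalpha. COX7 stood at 29.5, 23.7 and 24.96 CPM for WT MATa, 22.5, 22.7 and 23.6 for WT MATalpha, 32.4, 24.03 and 28.03 for tup1 MATa and 32.03, 36.2 and 33.6 for tup1 MATalpha and had the largest rise of the group in MATalpha, 0.57 ± 0.11 (adjusted p = 0.000205). COX8 stood at 88.2, 86.7 and 90.3 CPM across WT MATa, 71.9, 81.02 and 83.97 across WT MATalpha, 95.5, 77.8 and 81.2 across tup1 MATa and 86.4, 103 and 97.9 across tup1 MATalpha. COX9 stood at 83.4, 88.9 and 87.5 CPM for WT MATa, 84.2, 107 and 103 for WT MATalpha, 113, 113 and 130.1 for tup1 MATa and 146, 153 and 130.4 for tup1 MATalpha, with both tup1 groups above both WT groups. COX9 rose by 0.45 ± 0.09 in MATa and 0.56 ± 0.09 in MATalpha (adjusted p = 0.000352 and 1.77e-05). COX12 stood at 31.9, 30.1 and 31.9 CPM for WT MATa, 35.5, 38.5 and 34.3 for WT MATalpha, 32.4, 32.5 and 36.4 for tup1 MATa and 34.6, 32.01 and 40.1 for tup1 MATalpha, with overlapping groups in MATalpha. It was at 0.11 ± 0.09 and −0.02 ± 0.09 (adjusted p = 0.369 and 0.841). COX13 stood at 62.7, 64.2 and 64.6 CPM across WT MATa, 62.3, 66.02 and 60.5 across WT MATalpha, 64.8, 55.9 and 68.8 across tup1 MATa and 79.8, 76.01 and 87.4 across tup1 MATalpha, with −0.01 ± 0.08 in MATa (adjusted p = 0.934) and a rise of 0.36 ± 0.08 in MATalpha. COX7 and COX8 were at 0.11 ± 0.11 and −0.06 ± 0.08 in MATa (adjusted p = 0.438 and 0.631). COX8 had the smallest called rise of complex IV in MATalpha (0.29 ± 0.08, adjusted p = 0.00631), lost without WT MATalpha replicate 1.

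The ATP synthase rose in 5 of 9 members in MATa, by at most 0.26, and in all 9 in MATalpha. ATP1 and ATP2 encode the alpha and beta subunits of the catalytic head. ATP1 stood at 1057, 1064 and 1095 CPM across WT MATa, 787, 859 and 856 across WT MATalpha, 1458, 1253 and 1106 across tup1 MATa and 1356, 1549.5 and 1315 across tup1 MATalpha. ATP2, the most abundant of the 42 per kilobase, stood at 1529, 1595 and 1641 CPM for WT MATa, 1272, 1365 and 1358 for WT MATalpha, 2081, 1811 and 1816 for tup1 MATa and 2238, 2493 and 2223 for tup1 MATalpha. ATP2 rose by 0.26 ± 0.08 SE in MATa and 0.80 ± 0.09 in MATalpha (adjusted p = 0.0193 and 1.31e-07), the largest change of the complex in both. ATP1 rose by 0.25 ± 0.09 and 0.75 ± 0.10 (adjusted p = 0.0433 and 1.25e-06). ATP3, the gamma subunit, stood at 138, 138 and 141 CPM across WT MATa, 126, 131 and 131 across WT MATalpha, 139, 132 and 137 across tup1 MATa and 158, 153 and 164 across tup1 MATalpha. ATP16, the delta subunit, stood at 114, 113 and 114 CPM across WT MATa, 104, 107 and 97.2 across WT MATalpha, 125, 121 and 121 across tup1 MATa and 128, 135 and 129.6 across tup1 MATalpha. For ATP3 the MATa groups overlapped (−0.03 ± 0.06, adjusted p = 0.711) and the MATalpha groups did not (0.30 ± 0.06). ATP16 did not pass in MATa (0.11 ± 0.06, adjusted p = 0.134), although its groups did not overlap, and rose by 0.35 ± 0.06 in MATalpha.

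The stalk and membrane subunits of the ATP synthase rose by less than ATP1 and ATP2 in MATalpha. ATP4, subunit b, stood at 114, 123 and 123 CPM for WT MATa, 101, 109.9 and 109.6 for WT MATalpha, 120.2, 113 and 117 for tup1 MATa and 119.7, 128 and 127 for tup1 MATalpha and had the lowest log2 fold change of the complex in both mating types, −0.03 ± 0.06 SE in MATa and 0.23 ± 0.06 in MATalpha (adjusted p = 0.688 and 0.003). ATP5, the oligomycin sensitivity-conferring protein, stood at 205, 193 and 211 CPM across WT MATa, 188, 191 and 192 across WT MATalpha, 254, 229 and 217 across tup1 MATa and 298, 308 and 269 across tup1 MATalpha. ATP7, subunit d, stood at 76.3, 69.1 and 82.8 CPM across WT MATa, 71.3, 71.9 and 76.1 across WT MATalpha, 70.1, 74.9 and 79.9 across tup1 MATa and 99.9, 91.5 and 107 across tup1 MATalpha. ATP5 rose in both mating types (0.20 ± 0.07 and 0.62 ± 0.07), and ATP7 in MATalpha (0.45 ± 0.08) but did not pass in MATa (−0.02 ± 0.08, adjusted p = 0.871). ATP14, subunit h, stood at 81.01, 80.01 and 78.6 CPM across WT MATa, 84.8, 85.1 and 91.5 across WT MATalpha, 84.7, 88.8 and 99.9 across tup1 MATa and 106, 110.2 and 108 across tup1 MATalpha. ATP17, subunit f, stood at 69.1, 68.1 and 65.7 CPM for WT MATa, 57.9, 69.9 and 63.6 for WT MATalpha, 80.7, 79.9 and 73.3 for tup1 MATa and 77.1, 85.7 and 87.7 for tup1 MATalpha. They rose by 0.19 ± 0.07 and 0.20 ± 0.08 in MATa and by 0.31 ± 0.07 and 0.39 ± 0.08 in MATalpha. The 5 calls in MATa were near the threshold (adjusted p = 0.0193 to 0.0433), and each was lost without single libraries. For ATP2 this was WT MATa replicate 1, and for ATP5 WT MATa replicates 1 and 2 and tup1 MATa replicate 1. For ATP14 it was each WT MATa library and tup1 MATa replicate 3. For ATP17 it was each WT MATa library, WT MATalpha replicate 3 and tup1 MATa replicates 1 and 2, and for ATP1 each of the 6 WT libraries and tup1 MATa replicates 1 and 2. Upper-quartile scaling ended all 5, and 2 were left without tup1 MATa replicate 1 and in a fit of only the MATa groups.

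Summed over its members, each group stood highest in tup1 MATalpha. The 10 cycle genes together stood at 2896 ± 66.7 CPM in WT MATa and 4308 ± 446 in tup1 MATa (SD, n = 3), 1.49-fold, and at 2476 ± 65.9 and 6089.5 ± 139 in MATalpha, 2.46-fold. The NADH dehydrogenases changed 1.31-fold in MATa and 2.16-fold in MATalpha. Complex II changed 1.495-fold in MATa and 2.13-fold in MATalpha. The folds were 1.08 and 1.398 for complex III, 1.05 and 1.34 for complex IV, and 1.16 and 1.62 for the ATP synthase. These sums weigh abundant genes most and were not tested. With upper-quartile scaling 17 log2 ratios of such sums moved by at least the spread between libraries, and 1 stayed within it. RLE scaling and leaving out single libraries, tup1 MATa replicate 1 among them, kept all within it. Of the tup1 MATa libraries that replicate stood highest for the cycle, the NADH dehydrogenases, complexes II, III and IV and the ATP synthase. The cycle stood at 4812, 4147 and 3965 CPM there and complex IV at 568, 484 and 516, beside a WT MATa mean of 498. As a share of counts before scaling it was not highest: the 42 members took 1.209% in replicate 1, beside 1.228% and 1.224% in replicates 2 and 3. The medians of single genes put the groups in a partly different order in MATalpha, with complex II first and complex III above the ATP synthase. They were 1.15 for complex II, 0.94 for the NADH dehydrogenases, 0.93 for the cycle, 0.58 for complex III, 0.39 for the ATP synthase and 0.37 for complex IV. In MATa the medians of these groups were, in the same sequence, 0.61, 0.41, 0.36, 0.11, 0.19 and −0.01. All 42 members together took 1.003% of the counts in WT MATa, 0.896% in WT MATalpha, 1.22% in tup1 MATa and 1.48% in tup1 MATalpha. Across the 42 members the log2 fold changes in MATa and MATalpha, which share no library, had Spearman's rho 0.84. That rho over all genes is not given here, so it is not read as particular to the members. The change of the members in MATalpha had rho 0.48 with coding length, beside −0.03 over 5530 genes. Genes are not independent replicates.

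**Figure D3:**
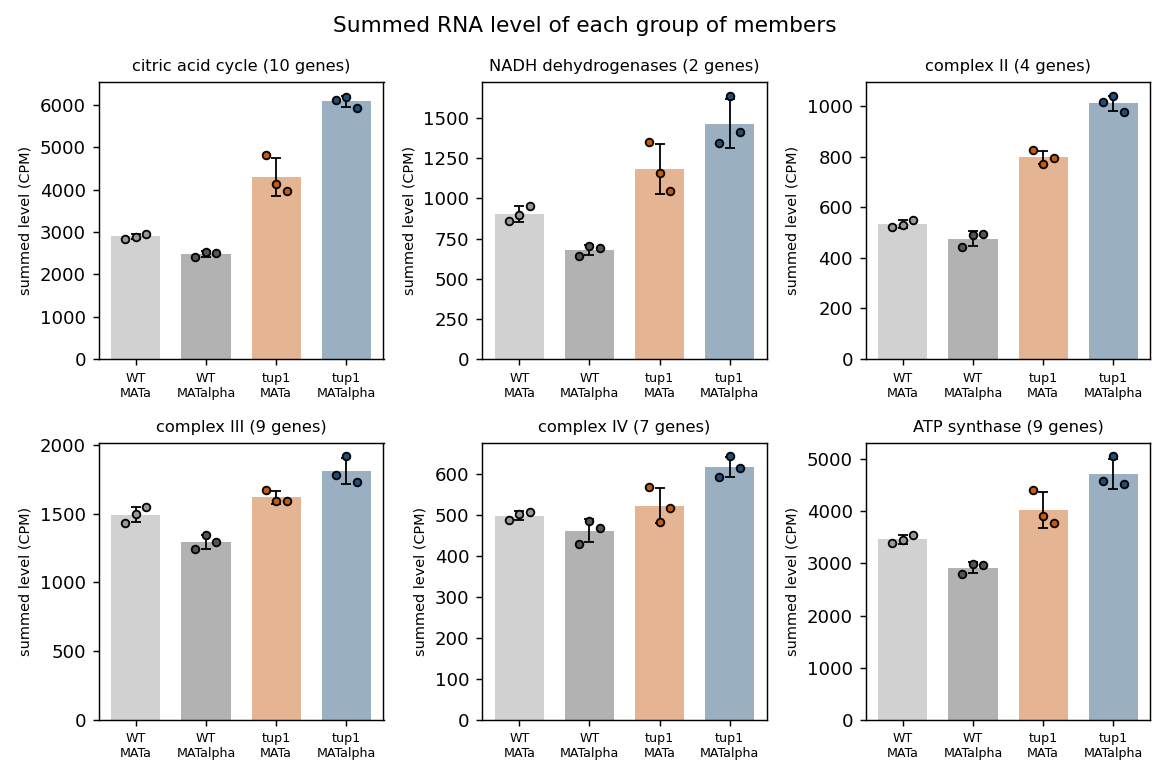
Summed level in CPM of the members of each group in the 4 strains. Bars are means, error bars SD and points the 3 libraries of a strain. In MATalpha the fold from WT to tup1 is 2.46 for the citric acid cycle, 2.16 for the NADH dehydrogenases, 2.13 for complex II and 1.34 for complex IV, and tup1 MATalpha is highest and WT MATalpha lowest in every panel.

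Each group is 1 strain, so mating type and strain cannot be told apart in what follows. The comparison of the mating types asks whether the tup1 effect on these genes differs between the MATalpha and MATa strains. It was larger in MATalpha for 32 of 42 members by the test of the difference and smaller for 0, against 12.4% of genes with a larger and 11.5% with a smaller effect. The median difference was 0.42 on the log2 scale, and the largest were ACO1 (0.94 ± 0.13 SE, adjusted p = 4.07e-05), CIT1 (0.93 ± 0.10, adjusted p = 1.44e-06), IDH1 (0.83 ± 0.11, adjusted p = 1.41e-05) and IDH2 (0.82 ± 0.10, adjusted p = 1.51e-05). Of the 32 members 19 rose in both mating types and 13 were called in MATalpha only. By group they were HAP4, 8 of the 10 cycle genes, NDE1, all 4 of complex II, 6 of 9 of complex III, 5 of 7 of complex IV and 7 of 9 of the ATP synthase. Upper-quartile scaling left 27 larger and 0 smaller, beside 631 and 863 of all genes, ending the calls of LSC2, COX7, COX8, ATP4 and ATP16. DESeq2 ended those of COX7, COX8 and ATP16, and the replicate block those of COR1, COX8 and ATP16. LSC2, COX7, COX8 and ATP16 each lost this call when any of 9 libraries was left out alone: each but WT MATalpha replicate 2 and tup1 MATa replicates 1 and 2 for LSC2, WT MATa replicate 2, tup1 MATa replicate 1 and tup1 MATalpha replicate 1 for COX7, WT MATalpha replicate 3 and replicate 1 of both tup1 strains for COX8, and WT MATalpha replicate 2 and replicate 1 of both tup1 strains for ATP16. COR1 lost it without WT MATa replicates 2 or 3, any WT MATalpha library or replicate 2 of either tup1 strain, and ATP4 without replicate 2 of any strain but WT MATalpha, replicate 3 of WT MATa or tup1 MATalpha, or replicate 1 of WT MATalpha. COX13 lost it without replicate 3 of WT MATa, WT MATalpha or tup1 MATalpha or replicate 2 of tup1 MATa, and SDH4 and CYT1 without replicate 3 of WT MATa or replicate 1 of WT MATalpha. The members tended to be lower in MATalpha than in MATa in WT and higher in tup1. Between the tup1 strains 25 members were higher in MATalpha and 0 lower, against 17.8% and 17.2% of genes, with a median of 0.26, and for 26 the groups did not overlap, as for 20.6% of genes. ACO1 (0.67 ± 0.09), IDH2 (0.61 ± 0.07) and IDH1 (0.60 ± 0.07) had the largest values there. ATP2, COX6, COX9, NDE1, QCR8, QCR10 and SDH1 each lost this call without single tup1 libraries, among them QCR8 and COX9 without replicate 1 of tup1 MATa. With that library left out the counts were 29 higher and 1 lower, QCR6, against 19.4% and 19.6% of genes, and the difference of effects was called for 33 members, all larger in MATalpha, against 17.0% of genes with a larger and 17.6% with a smaller effect.

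In WT the median of the members between MATalpha and MATa was −0.18, beside 0.01 over all genes. CIT1 (−0.38 ± 0.07 SE, adjusted p = 0.00852), NDE1 (−0.45 ± 0.10, adjusted p = 0.0454) and CYT1 (−0.38 ± 0.09, adjusted p = 0.0434) were lower in MATalpha and 0 members higher, against 0.371% of genes called lower and 0.531% higher. NDE1 and CYT1 lost their calls when any 1 of the 6 WT libraries was left out, and CIT1 for any but WT MATa replicate 1. For 28 members all 3 WT MATalpha libraries lay below all 3 WT MATa libraries, as for 17.2% of genes. The number called depended on the libraries that set the spread. Without tup1 MATa replicate 1 it was 18 members lower and 0 higher, against 3.88% and 3.16% of genes. In a fit of the 6 WT libraries alone it was 23 lower and 0 higher, against 10.3% and 9.39% of genes. Among these 23 were 8 of 10 cycle genes. By group mean 35 members were lowest in WT MATalpha and 38 highest in tup1 MATalpha, the exceptions to the latter being MDH1 (tup1 MATa), QCR6 and CYT1 (WT MATa) and COX12 (WT MATalpha). For 26 members the means rose in the order WT MATalpha, WT MATa, tup1 MATa, tup1 MATalpha, a description in which neighbours often did not differ beyond their spread. The share of all genes with these orders of means is not given here, so the counts are not read as particular to the members.

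Other genes of the pathway were counted by role. Of the 5654 genes tested 24.7% rose and 16.7% fell in MATa, and 32.0% rose and 31.0% fell in MATalpha. Of 7 other electron donors and cytochrome c genes 4 rose and 1 fell in MATa and 5 rose and 1 fell in MATalpha. NDE2, the second external NADH dehydrogenase, went from 1.103 ± 0.242 to 32.4 ± 5.55 CPM in MATa (SD, n = 3; 4.85 ± 0.20 SE on the log2 scale, adjusted p = 1.62e-13) and rose by 4.49 ± 0.18 in MATalpha. NDE1 remained the more abundant of the pair in every strain, with similar coding lengths. CYB2, which feeds electrons from lactate to cytochrome c, rose by 3.25 ± 0.11 in MATa. CYC7, the hypoxic cytochrome c, rose by 2.71 ± 0.20 in MATalpha, and its MATa means were 4.25 CPM in WT and 29.6 in tup1. Of 20 other subunits and paralogs of complexes II to V 11 rose and 1 fell in MATa, and 13 rose and 1 fell in MATalpha. COX26, a small subunit of cytochrome c oxidase, went from 4.88 ± 1.604 to 47.7 ± 6.09 CPM in MATa (3.27 ± 0.16, adjusted p = 1.76e-12) and from 5.403 ± 0.977 to 46.6 ± 2.26 in MATalpha (3.12 ± 0.16). YJL045W, the paralog of SDH1, rose by 3.49 ± 0.23 in MATalpha, and SHH3, the paralog of SDH3, stood at 0.236 ± 0.291 and 5.57 ± 0.886 CPM, with few counts in WT. Reads shared between such paralogs and their partners (YJL045W and SDH1, the TDH genes) may be split, as the treatment of reads with several positions is not given. Singled out after their values were seen, INH1 and STF1, which encode inhibitors of the ATP synthase's hydrolysis, rose by 1.12 ± 0.08 and 1.49 ± 0.20 in MATa and 1.31 ± 0.08 and 2.06 ± 0.19 in MATalpha. The 9 listed subunits of the enzyme rose by at most 0.80.

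The enzymes that feed or parallel the cycle rose in 7 of 19 cases and fell in 2 in MATa (4 without tup1 MATa replicate 1), and rose in 14 and fell in 2 in MATalpha. Over all genes 24.7% rose and 16.7% fell in MATa (25.9% and 18.2% without that replicate), and 32.0% and 31.0% in MATalpha. MDH2, the cytosolic malate dehydrogenase, rose by 1.60 ± 0.09 SE in MATa and 1.98 ± 0.09 in MATalpha. MAE1, malic enzyme, rose by 0.87 ± 0.07 in MATa, and its MATalpha means were 303 CPM in WT and 470 in tup1. CIT3, a second mitochondrial citrate synthase, rose in MATalpha (1.60 ± 0.20) from a low level of 2.78 ± 0.2304 CPM. Of 18 membrane carriers 10 rose and 3 fell in MATa (6 without tup1 MATa replicate 1), and 13 rose and 1 fell in MATalpha. MPC3, a subunit of the mitochondrial pyruvate carrier, rose by 2.91 ± 0.14 and 3.31 ± 0.15. CRC1, the carnitine carrier, rose by 3.33 ± 0.31 in MATalpha, and SFC1, which exchanges succinate for fumarate, by 3.54 ± 0.65 in MATa, both from WT levels near 1 CPM or below. In the other mating type the WT and tup1 means were 1.04 and 7.11 CPM for CRC1 and 0.785 and 7.38 for SFC1. Of 17 regulators 7 rose and 2 fell in MATa and 7 rose and 4 fell in MATalpha. ADR1, an activator of glucose-repressed genes, rose by 2.49 ± 0.07 and 2.71 ± 0.07, and SIP4, an activator of gluconeogenesis, by 2.32 ± 0.19 and 2.89 ± 0.15. The partners of Hap4, looked up after the other values were seen, did not pass as higher: HAP2 was at −0.19 ± 0.14 and −0.57 ± 0.15, HAP3 at −0.03 ± 0.21 and −0.58 ± 0.24 and HAP5 at 0.18 ± 0.16 and −0.14 ± 0.18, where HAP2 and HAP3 fell in MATalpha (adjusted p = 0.00313 and 0.0413).

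Of 38 assembly factors of complexes III to V, 7 rose and 4 fell in MATa, while 9 rose and 9 fell in MATalpha, with medians of −0.03 and −0.08. Over all genes 24.7% rose and 16.7% fell in MATa and 32.0% and 31.0% in MATalpha, so these factors showed no excess of rises. CYC3, the lyase that attaches heme to cytochrome c, led with 0.97 ± 0.07 SE and 1.17 ± 0.07. COX19, a copper-related factor for complex IV, rose by 0.57 ± 0.12 in MATa, and SCO2 by 0.80 ± 0.12 in MATalpha. In the other mating type the WT and tup1 means were 14.1 and 19.1 CPM for COX19 and 14.7 and 18.9 for SCO2. Of 11 ubiquinone synthesis genes 3 rose and 1 fell in MATa, 4 rose and 1 fell in MATalpha, led by COQ9 (0.69 ± 0.08 and 0.95 ± 0.08) and COQ6 (0.55 ± 0.07 and 0.85 ± 0.07). Of 73 mitochondrial ribosomal protein genes 2 rose and 39 fell in MATalpha, where 31.0% of all genes fell. In MATa 2 rose and 15 fell, where 16.7% of all genes fell, and the medians were −0.28 in MATalpha and −0.10 in MATa. MRPL8 fell by 0.63 and MRPL33 by 0.66 on the log2 scale in MATalpha, and MRPL15 by 0.49 and MRP35 by 0.46 in MATa. Without tup1 MATa replicate 1, 4 rose and 7 fell in MATa, where 18.2% of all genes fell. With upper-quartile scaling 1 rose and 27 fell in MATa and 1 rose and 56 fell in MATalpha. Over all 5654 genes this scaling gave 1114 higher and 1778 lower in MATa and 1480 and 2470 in MATalpha. Of the 7 chain subunits encoded in mitochondrial DNA 6 were tested (ATP8 had 0 to 4 counts). COX1 contains other genes in its introns, so its count is uncertain. In MATalpha all 6 rose, with COX1 at 1.26 ± 0.08 and ATP6 at 1.05 ± 0.23. In MATa COX1 rose (0.24 ± 0.08, adjusted p = 0.0272) and the others did not pass, and without tup1 MATa replicate 1 0 rose and 2 fell. Of 25 glycolysis and fermentation genes, 11 rose and 3 fell in MATa (10 and 7 without tup1 MATa replicate 1), and 15 rose and 1 fell in MATalpha. TDH1, a form of glyceraldehyde-3-phosphate dehydrogenase, rose by 4.53 ± 0.12 and 5.16 ± 0.12, and PDC6, a minor pyruvate decarboxylase, by 3.38 ± 0.24 and 3.35 ± 0.20. Upper-quartile scaling moved several of these splits: to 7 higher and 6 lower for the feeder enzymes, 7 and 5 for regulators, 10 and 3 for other subunits, 9 and 6 for glycolysis, 6 and 6 for assembly factors, 4 and 2 for other donors and 2 and 2 for ubiquinone synthesis in MATa. In MATalpha they became 12 and 4 for the feeders, 4 and 6 for regulators, 7 and 12 for assembly factors, 5 and 2 for other donors and 4 and 2 for ubiquinone synthesis, where RLE scaling gave 4 and 0. The RNAs of the mitochondrial ribosome, 15S and 21S, took 0.822 ± 0.0204% of counts in WT MATa, 0.946 ± 0.0223% in WT MATalpha, 0.981 ± 0.2296% for tup1 MATa and 1.32 ± 0.189% for tup1 MATalpha (3 libraries each, SD). Single tup1 MATa libraries ran from 0.758 to 1.22%. As ribosomal RNA was depleted, a change in these RNAs and one in their depletion cannot be told apart.

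**Figure D4:**
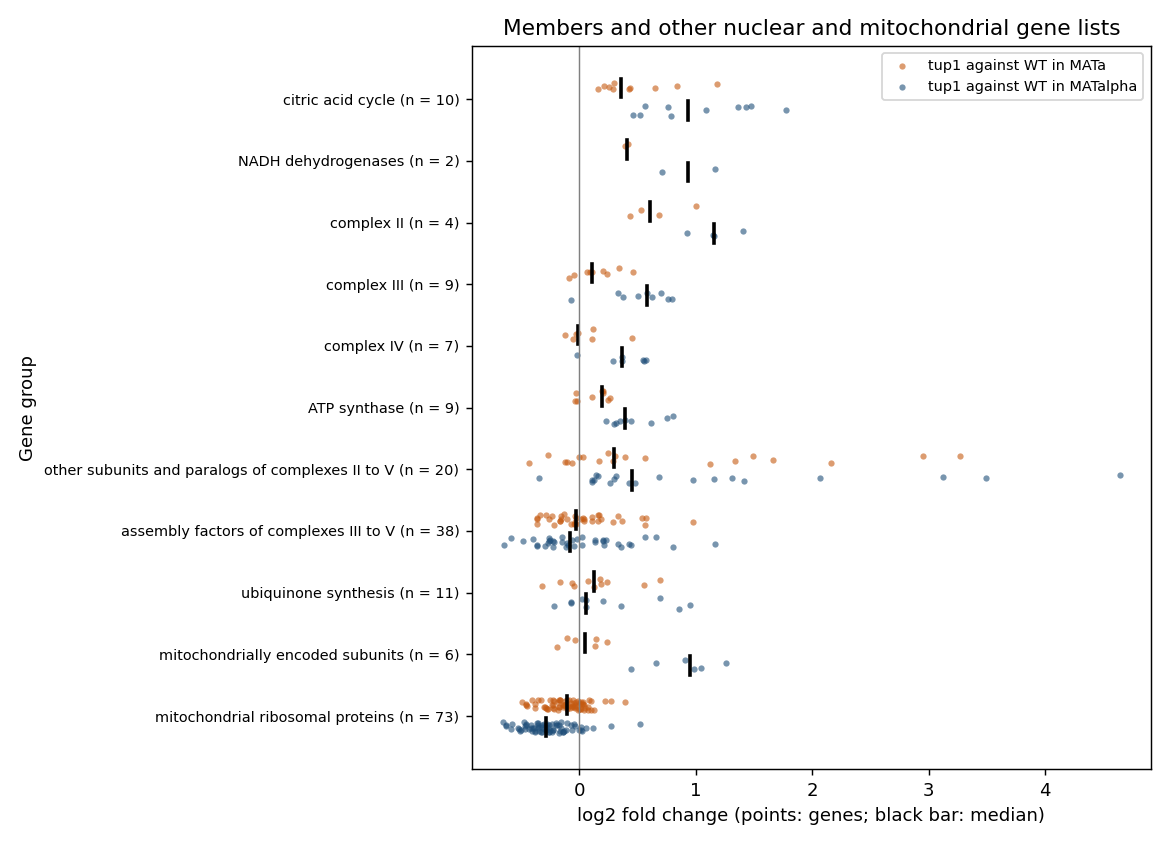
Log2 fold change of tup1 against WT for the genes of each member group and of 5 other lists (rows), in MATa (orange) and MATalpha (blue). Points are genes and black bars medians. The citric acid cycle and complex II lie right of zero in both mating types, assembly factors scatter around it, and most mitochondrial ribosomal proteins lie left of it in MATalpha.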

How the data were processed

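RNA was measured in 12 libraries, 3 for each of 4 strains. The deposited values are raw read counts per gene in 1 table of 6219 genes, made by the authors with cutadapt 2.8, STAR 2.7.3 and featureCounts 1.6.3 (Subread) on sacCer3 and R64, per the submitters' processing notes. The role of each tool, whether counting used strand, and how multi-mapping reads were handled are not given by those notes. Counts were fitted with edgeR 4.0.16 in R 4.3.3: filterByExpr with a minimum count of 10 (5654 genes), TMM scaling, 1 robust quasi-likelihood fit of 4 group means over 12 libraries with 8 residual degrees of freedom, and 5 two-sided contrasts. Adjusted p-values are Benjamini-Hochberg over all 5654 genes, and a gene was called, and said to rise or fall, below 0.05. CPM are counts scaled to a common total after TMM, ± is SD for levels and SE for log2 fold changes, and levels between genes are compared per kilobase of coding sequence. The fit was tested on simulated counts. Alternatives were RLE and upper-quartile scaling, no filter, DESeq2 1.42.0, only the groups compared, a replicate block and each library left out.

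The members and the lists were chosen with earlier results of these data known. All 42 members were described, and of each other list at most the 2 called genes with the largest absolute log2 fold change in each mating type were named, with exceptions stated. Promoter windows were read from the R64 genome.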

Additional observations from a re-analysis of the deposited data

Results flagged for a closer look

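The test of the difference between the tup1 effects (MATalpha minus MATa, edgeR quasi-likelihood, adjusted p under 0.05) marked 32 members, all with a larger effect in MATalpha. On the log2 scale the difference was 0.36 for HAP4, 0.93 for CIT1, 0.94 for ACO1, 0.83 for IDH1, 0.82 for IDH2, 0.36 for KGD1, 0.49 for LSC1, 0.25 for LSC2 and 0.47 for FUM1, the activator and the cycle. At the entry of electrons it was 0.77 for NDE1, 0.49 for SDH1, 0.62 for SDH2, 0.47 for SDH3 and 0.40 for SDH4. In complex III it was 0.26 for COR1, 0.47 for QCR2, 0.67 for QCR9, 0.46 for QCR10, 0.42 for RIP1 and 0.42 for CYT1. In complex IV it was 0.57 for COX4, 0.49 for COX6, 0.46 for COX7, 0.34 for COX8 and 0.37 for COX13. For the ATP synthase it was 0.51 for ATP1, 0.54 for ATP2, 0.33 for ATP3, 0.27 for ATP4, 0.42 for ATP5, 0.47 for ATP7 and 0.24 for ATP16.

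Among the named genes of the other lists the effect was larger in MATalpha by 1.02 for COX1, 1.24 for ATP6, 0.30 for COQ6, 1.33 for YJL045W, 0.63 for TDH1, 0.38 for MDH2 and 1.38 for CIT3. The effect was lower in MATalpha for MRPL8 (−0.61) and CYB2 (−0.77), where CYB2 rose in both mating types.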

How the results depend on the processing

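No called value changed sign under the alternatives run. Upper-quartile scaling left 17 members higher and 1 lower in MATa and made 1 lower in MATalpha; the cause was not tested. The number of members lower in WT MATalpha than in WT MATa, 3 in the fit of all libraries, was 6 with DESeq2, 23 with only the WT libraries and 1 with the replicate number as a block. It ranged from 0 to 18 without single libraries (18 without tup1 MATa replicate 1). The share of all genes called lower moved too, from 0.371% in the fit of all libraries to 3.88% without tup1 MATa replicate 1 and 10.3% with only the WT libraries. For DESeq2, the block and the other left-out libraries that share is not given here, so a change in the members and one in calling over all genes cannot be told apart. Members lower ranged from 0 to 1 without single libraries both for tup1 against WT in MATa and for MATalpha against MATa in tup1, where the 1 arose without tup1 MATa replicate 1. Deviations of libraries with the same number had correlations of −0.29 to 0.12, so the numbers were not taken to pair libraries, and under the block no other count of members moved by over 1.5 times. Not every library correlated best with its own number. Each group is 1 strain, so an effect of tup1 or of mating type and one of the strain cannot be told apart. Genes with few counts (SHH3, SFC1 and CRC1) have wide errors.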
